A study of Homo sapiens with 12 samples.

Results

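The genes followed across the series were 10, of which 7 belong to the DNA methylation machinery (DNMT1, DNMT3A, DNMT3B, UHRF1, TET1, TET2 and TET3) and 3 are germline genes (SSX1, GTSF1 and PRAME). They were taken by gene symbol from the deposited gene table, in which all 10 were present among 17589 genes. The 10 names were chosen because earlier results of these data showed differences between the receptor groups. Their differences between the fusion receptor groups and the other groups are therefore a description, and where the number called is given for these contrasts, it only restates how the genes were chosen.

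The libraries came from YT cells, an established line labelled as natural killer (NK)-like lymphoid cells. All 12 libraries, the controls included, came from cells infected with a lentiviral vector. CTRL cells expressed eGFP, and hnCD16 cells expressed a high-affinity, non-cleavable CD16. FR1 cells carried the hnCD16 ectodomain fused to the 2B4, DAP10 and CD3ζ signalling domains, and FR2 cells carried the same ectodomain fused to DAP10 and CD3ζ. The receptors were driven by the constitutive hEF1A promoter, the cells were sorted as eGFP-positive and expanded, and RNA was taken without stimulation. Each group had 3 libraries. The study's statistics section says of its in vitro data in general that they came from 3 independent experiments. Neither the labels nor the RNA-sequencing methods say whether the 3 libraries of a group were separate cultures or transductions, so p-values measure the spread between libraries, part of which may be technical.

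Totals ran from 17714566 to 18729019 expected counts per library. FCGR3A, which encodes CD16a and is the base of each receptor, gave no count in CTRL, and its counts per library were 453 to 480 for hnCD16, 559 to 567 for FR1 and 1012 to 1132 for FR2. The 12 libraries fell into 2 sets of 6 that did not follow the presence of a receptor. The first principal component took 96.3% of the variance, and hnCD16 lay with CTRL on it, apart from FR1 and FR2. Of 13657 genes tested, 31.7% were called (log2 fold change of at least 1 in size, edgeR adjusted p of at most 0.05) in all 4 comparisons of a fusion receptor group with CTRL or hnCD16. The labelled cell type was checked against 17 NK cell markers. Their summed level was 64.6 to 75.1 CPM (counts scaled to library size) over the 6 CTRL and hnCD16 libraries and 4840 to 5180 CPM over the 6 of FR1 and FR2. At 1 CPM or more in every library of a group were 6 of the 17 in CTRL and in hnCD16, and 13 in FR1 and in FR2. NCAM1, KLRC1, NCR1, GNLY, PRF1, GZMB, TBX21 and IL2RB had means under 1 CPM in CTRL and hnCD16 and above it in FR1 and FR2. KLRF1, FCER1G and TYROBP had means under 1 CPM in all 4 groups, with TYROBP at 0 in FR1 and FR2. GZMA (21.1 and 23 CPM in CTRL and hnCD16, 4.78 and 6.49 CPM in FR1 and FR2) and NCR3 (5.4 and 5.58 CPM, then 0.825 and 0.131 CPM) went the other way. The summed level of 10 T cell markers ran the other way, 740 to 904 CPM in CTRL and hnCD16 against 129 to 170 CPM in FR1 and FR2. CD3D, CD4, CD6 and TRAT1 had means above 1 CPM in CTRL and hnCD16 and under it in FR1 and FR2. The mean of CD8B was under 1 CPM in all 4 groups, and that of CD8A reached it in CTRL only. CD28 went against the other T cell markers, with 3.18 and 3.09 CPM in CTRL and hnCD16 and 92.4 and 119 CPM in FR1 and FR2, where it made up most of the sum. The summed NK markers thus went against the label in the 6 CTRL and hnCD16 libraries. Every comparison across the 2 sets rests on those libraries, and the receptor, the cell population and its history cannot be told apart in it. The comparisons within a set, hnCD16 with CTRL and FR1 with FR2, do not cross it and are given separately below. In bulk RNA, fewer cells that express a gene and less RNA per cell cannot be told apart.

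DNA methylation in vertebrates lies mostly on cytosines of CG dinucleotides. DNMT1 copies it onto the new strand after replication, guided by UHRF1, which binds hemimethylated CG sites, while DNMT3A and DNMT3B place it on sites that had none. TET1, TET2 and TET3 oxidise methylcytosine, the first step of active demethylation. Many genes of the germline are methylated and silent in somatic cells, and some are switched on again in tumours, hence the name cancer-testis genes. No methylation was measured in this series: all values below are RNA levels.

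SSX1, a cancer-testis gene whose protein is a transcriptional repressor, was found in the fusion receptor libraries and practically nowhere else. It had 1578, 1382 and 1429 counts in FR1 and 1306, 1268 and 1340 counts in FR2. In CTRL it had 0, 0 and 1 counts, and in hnCD16 it had none. The 6 fusion receptor libraries were all high, at 102 to 129 TPM (a level scaled by transcript length and library), and the other 6 at 0 to 0.09 TPM. Against the limit that a count of 0 allows, taken as 3 counts over the 3 libraries of a group, the SSX1 level of FR1 was at least 1560-fold higher than that of hnCD16, and that of FR2 at least 1370-fold higher. Against CTRL, with its 1 count, the ratio was 5030 in FR1 (95% exact counting interval 902 to 199000) and 4400 in FR2 (790 to 174000). These intervals cover counting error only. By mean TPM, SSX1 ranked 1265 of 17589 genes in FR1 and 1345 in FR2.

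GTSF1 encodes a zinc finger protein that works with PIWI proteins in the piRNA pathway, which silences transposons in germ cells. Its pattern was the reverse of that of SSX1. It had 7716, 7215 and 6741 counts in CTRL and 8835, 8176 and 7958 counts in hnCD16. In FR1 it had 0, 0 and 1 counts, and in FR2 it had 2, 0 and 0. The CTRL and hnCD16 libraries, at 903 to 1080 TPM, placed GTSF1 at rank 156 and rank 145 of all genes, and the fusion receptor libraries were at or next to 0. The ratio of hnCD16 to FR1 was 23300 (95% exact counting interval 4190 to 922000) and that of hnCD16 to FR2 was 11900 (3290 to 98100). The ratio of CTRL was 18900 to FR1 (3400 to 747000) and 9630 to FR2 (2670 to 79500).

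PRAME, a cancer-testis antigen that represses retinoic acid receptor signalling, followed GTSF1 at a lower level. It had 484, 477 and 493 counts in CTRL and 419, 443 and 373 counts in hnCD16. FR1 gave 0, 0 and 1 counts and FR2 gave 5, 1 and 3. The groups did not overlap across the 2 sets, with 16.4 to 22.0 TPM in CTRL and hnCD16 and 0 to 0.25 TPM in FR1 and FR2. The ratio of hnCD16 was 1150 to FR1 (95% exact counting interval 207 to 45600) and 131 to FR2 (68.6 to 286), and that of CTRL was 1270 to FR1 (228 to 50200) and 144 to FR2 (75.4 to 315). One germline gene was therefore present where the other pair was absent, in each of the 12 libraries apart from stray counts.

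**Figure D1:**
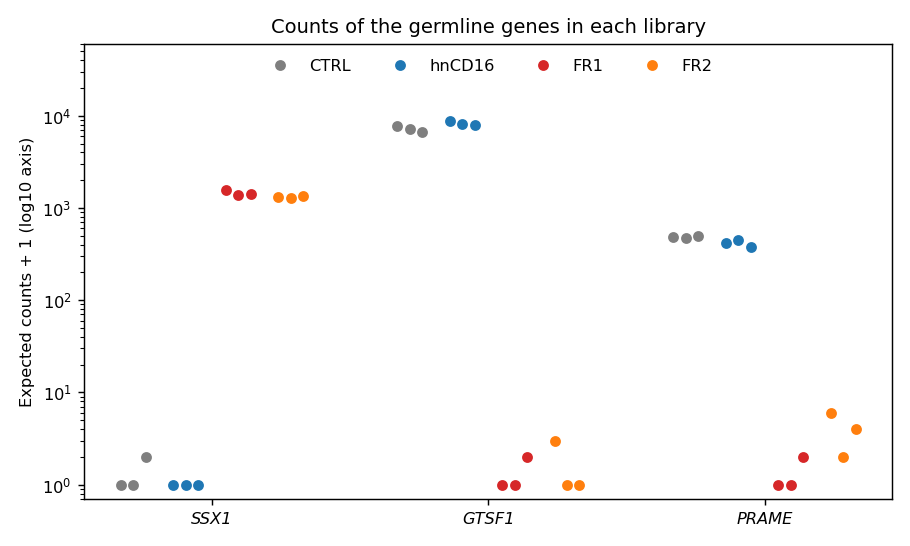
Expected counts plus 1 on a log10 axis for SSX1, GTSF1 and PRAME, with 1 point per library and 3 libraries per group. SSX1 lies at 1268 counts or more in the 6 FR1 and FR2 libraries and at 0 or 1 count elsewhere, while GTSF1 and PRAME are high in the 6 CTRL and hnCD16 libraries and at 5 counts or fewer in the others.

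The 3 genes lie on different chromosomes. In GENCODE v44 on GRCh38, SSX1 spans 48255392 to 48267444 on the plus strand of chromosome X, GTSF1 spans 54455950 to 54473602 on the minus strand of chromosome 12, and PRAME spans 22547701 to 22559361 on the minus strand of chromosome 22. SSX1 overlaps no other annotated gene, whereas GTSF1 and PRAME each overlap non-coding genes of the opposite strand, whose reads cannot be told apart from theirs where strand was not counted. The bases just before each start are printed because CG dinucleotides, in capitals, are what the methylation enzymes act on. They are RefSeq promoter windows of GRCh38.p14, on the gene's own strand, at chrX:48255142-48255391, chr12:54473603-54473852 and chr22:22559362-22559515.
SSX1: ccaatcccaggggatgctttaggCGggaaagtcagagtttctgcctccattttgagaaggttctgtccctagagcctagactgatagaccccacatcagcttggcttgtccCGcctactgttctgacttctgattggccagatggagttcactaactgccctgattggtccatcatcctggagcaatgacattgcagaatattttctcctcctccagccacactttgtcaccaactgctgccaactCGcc
GTSF1: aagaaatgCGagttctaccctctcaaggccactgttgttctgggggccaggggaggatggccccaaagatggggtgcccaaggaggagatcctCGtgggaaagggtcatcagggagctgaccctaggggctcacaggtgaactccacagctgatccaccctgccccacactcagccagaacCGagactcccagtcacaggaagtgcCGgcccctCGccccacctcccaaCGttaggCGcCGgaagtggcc
PRAME: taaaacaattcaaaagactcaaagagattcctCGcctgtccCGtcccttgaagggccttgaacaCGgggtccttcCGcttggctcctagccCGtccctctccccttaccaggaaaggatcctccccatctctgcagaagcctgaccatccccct

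The SSX1 window held 3 CG in 250 bases, and 29.3% of 35116 promoter windows held as few or fewer. The GTSF1 window held 8 CG in 250 bases, with 45.9% of windows at or below it. The PRAME window, of which 154 bases lie before the start in both annotations, held 5 CG, with 51.1% of windows of that length at or below it. CG reads the same on both strands. The full windows of the other annotated PRAME starts held 8 and 4 CG. The enzymes spanned a wide range, with 28, 32 and 41 CG in the UHRF1 windows and 21 in that of DNMT1, but 3 in that of DNMT3B, 9, 4 and 11 in those of TET1, and 10 and 34 in those of TET2. Not all of these windows lie at the outer start of the gene model. The DNMT3B window begins at 32779602 of chromosome 20, inside a gene model that starts at 32762385. The windows of UHRF1 and DNMT1 also lie inside their gene models. So do the TET1 windows with 4 and 11 CG and the TET2 window with 34 CG. The CG at the outer start of DNMT3B were not counted.

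Of the enzymes, UHRF1 and DNMT1 form the maintenance pair. UHRF1 had 141, 148 and 148 TPM in CTRL and 96.6, 93.9 and 95.7 TPM in hnCD16. It had 22.3, 20.9 and 23.3 TPM in FR1 and 26.3, 23.7 and 24.0 TPM in FR2. All 6 fusion receptor libraries lay below all other libraries. On counts scaled by the trimmed mean of M values (TMM), UHRF1 was 4.01-fold lower in FR1 and 3.63-fold lower in FR2 than in hnCD16, a log2 fold change of -2 ± 0.0539 and -1.86 ± 0.0534 (SE, 3 libraries per group). Relative to CTRL the log2 fold change was -2.46 ± 0.0542 in FR1 and -2.32 ± 0.0537 in FR2.

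DNMT1 did not follow UHRF1. It had 71.0, 74.9 and 76.9 TPM in CTRL, 51.9, 47.4 and 52.3 TPM in hnCD16, 45.4, 43.9 and 48.7 TPM in FR1 and 49.3, 49.4 and 50.0 TPM in FR2. CTRL was the high group, and the ranges of hnCD16, FR1 and FR2 lay together, with those of hnCD16 and either fusion receptor group overlapping. The log2 fold change from hnCD16 was -0.07 ± 0.0513 in FR1 and 0.03 ± 0.0512 in FR2, the latter turning to -0.03 on TPM. DNMT1 was the only one of the 10 genes whose 6 fusion receptor libraries overlapped the other 6 in TPM. The ranges of the other 9 lay apart, as did those of 63.9% of all genes tested. On TPM, UHRF1 stood at 1.83 to 1.98 times DNMT1 where no fusion receptor was carried, and at 0.48 to 0.53 times DNMT1 in FR1 and FR2.

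Since both genes are expressed with replication, 22 S phase genes were read beside them. Their summed level was 5620 to 5770 CPM for CTRL and 5640 to 5870 CPM for hnCD16, against 5170 to 5250 CPM for FR1 and 4600 to 4640 CPM for FR2. CDC6, a replication licensing factor, fell in all 4 comparisons across the sets, with log2 fold changes of -1.57 to -1.29. CCNE1, which encodes cyclin E1, rose in all 4, by 1.07 to 1.36. The other 20 were not called in any. In each comparison 2 of 22 (9.09%) were thus called, beside 38.0% to 39.5% of all genes. The median of the 22 genes was -0.20 for FR1 and -0.24 for FR2 relative to hnCD16. The part of S phase in the level of UHRF1 was not tested.

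Of the enzymes that methylate new sites, DNMT3B was the further from the other groups. It had 11.4, 11.9 and 12.3 TPM in CTRL, 9.02, 9.37 and 9.82 TPM in hnCD16, 1.34, 1.37 and 1.98 TPM in FR1 and 2.56, 2.63 and 2.62 TPM in FR2. The groups ranked CTRL, hnCD16, FR2 and FR1 with no overlap between neighbours. On TMM-scaled counts DNMT3B was 5.74-fold lower in FR1 and 3.54-fold lower in FR2 than in hnCD16.

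DNMT3A had 24.0, 22.5 and 23.6 TPM in CTRL, 15.5, 17.4 and 17.2 TPM in hnCD16, 6.02, 5.09 and 5.59 TPM in FR1 and 6.70, 5.28 and 6.97 TPM in FR2. The FR1 and FR2 ranges overlapped and lay below the rest. How much lower depended on the scale. On TMM-scaled counts DNMT3A was 1.99-fold lower in FR1 and 1.74-fold lower in FR2 than in hnCD16, whereas on mean TPM it was 3-fold and 2.64-fold lower. For UHRF1 the scales lay closer, at 4.01-fold lower on counts and 4.31-fold lower on TPM in FR1.

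TET1 and TET2 were the lowest enzymes in every group, and both were close to absent in the fusion receptor libraries. TET1 had 3.61, 4.62 and 5.27 TPM in CTRL and 3.19, 3.20 and 3.96 TPM in hnCD16, then 0.11, 0.14 and 0.14 TPM in FR1 and 0.13, 0.16 and 0.08 TPM in FR2. It was present at 425 to 683 counts in CTRL and hnCD16 and at 14 to 23 counts in the other libraries, 23.3-fold lower in either fusion receptor group than in hnCD16. TET2 had 3.09, 3.74 and 4.38 TPM in CTRL, 2.64, 2.69 and 3.69 TPM in hnCD16, 0.21, 0.20 and 0.22 TPM in FR1 and 0.16, 0.28 and 0.33 TPM in FR2. It was 13.9-fold lower in FR1 and 11.4-fold lower in FR2 than in hnCD16. An antisense gene, TET2-AS1, lies over TET2, and reads of the pair cannot be told apart without strand.

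TET3, the most abundant of the 3 in all libraries, moved least. It had 15.1, 15.1 and 15.7 TPM in CTRL, 10.4, 10.3 and 11.4 TPM in hnCD16, 5.16, 5.11 and 4.97 TPM in FR1 and 4.82, 4.62 and 4.84 TPM in FR2. The 4 groups did not overlap. The log2 fold change from hnCD16 was -0.96 ± 0.0501 in FR1 and -1.10 ± 0.0505 in FR2. The summed TPM of the TET genes was 16.2 to 25.3 in CTRL and hnCD16 and 5.1 to 5.5 in FR1 and FR2, and the share of TET3 in it was 59.8% to 69.2% in the former libraries and 91.3% to 94.3% in the latter. In the same way DNMT1 made up 63.9% to 68.5% of the summed DNMT1, DNMT3A and DNMT3B TPM in CTRL and hnCD16 and 83.9% to 87.2% in FR1 and FR2. What remained of both enzyme groups in the fusion receptor libraries was thus mostly 1 gene of each.

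**Figure D2:**
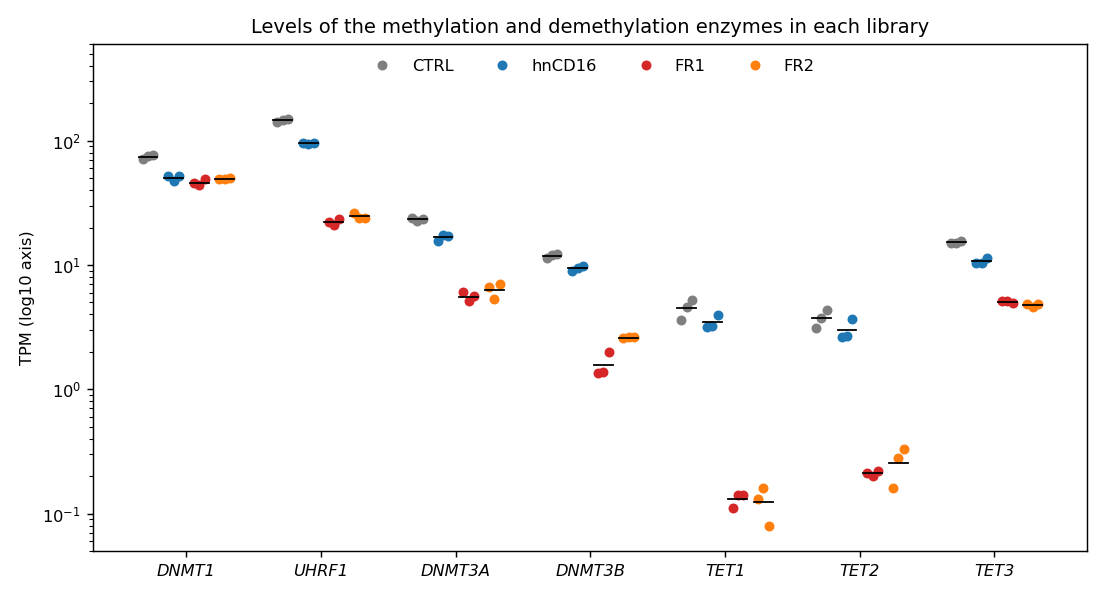
TPM of the 7 enzymes on a log10 axis, with 1 point per library, 3 libraries per group and a bar at each group mean. FR1 and FR2 lie below CTRL and hnCD16 for every enzyme except DNMT1, and the widest gaps are those of TET1 and TET2.

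The order of the enzymes by mean TPM changed between the sets. In CTRL and hnCD16 it ran UHRF1, DNMT1, DNMT3A, TET3, DNMT3B, TET1 and TET2, and only TET1 and TET2 overlapped. In FR1 and FR2 DNMT1 came first and UHRF1 second. DNMT3A and TET3 followed, overlapping in FR1 and not in FR2, then DNMT3B, TET2 and TET1, the last pair overlapping in FR2 only.

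By the call rule given above 7 of the 10 genes were called in FR1 against hnCD16, 1 higher and 6 lower, beside 38.3% of all genes tested (18.7% higher, 19.6% lower). In FR2 against hnCD16 it was 8, 1 higher and 7 lower, beside 39.5% (19.6% higher, 19.8% lower). In FR1 against CTRL it was 9, 1 higher and 8 lower, beside 38.0% (18.3% higher, 19.8% lower), and in FR2 against CTRL again 1 and 8, beside 38.2% (18.7% higher, 19.6% lower). SSX1 was the higher gene each time. The members were picked on these contrasts, so nothing is read from the counts. All 10 passed the filter on low counts, SSX1 through the fusion receptor libraries alone and GTSF1 and PRAME through the others alone. DNMT1 was called in none, TET3 was missed in FR1 against hnCD16, and DNMT3A was missed in both comparisons with hnCD16. DNMT3A lay on the fold threshold. Its log2 fold change of -0.99 in FR1 against hnCD16 reached it in 11 of 15 alternatives, which were RLE and library-size scaling, both other filters, DESeq2, both limma fits on TPM (-1.43 and -1.57) and the fits without replicate 1 or 3 of hnCD16 or of FR1. That of -1.06 in FR2 against CTRL fell short of it without CTRL replicate 1 (-1) or FR2 replicate 2 (-0.95). The comparisons share their controls and are not independent.

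**Figure D3:**
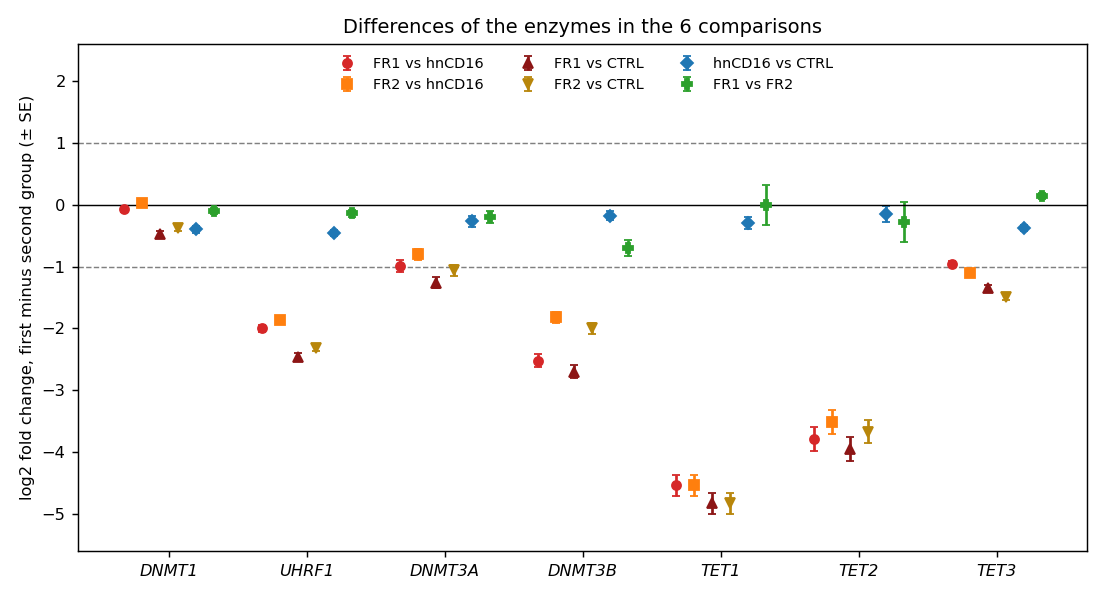
Log2 fold changes of the 7 enzymes, first minus second group, in the 6 comparisons, from the edgeR fit on TMM-scaled counts. Points are fitted values, error bars are SE, and dashed lines mark a log2 fold change of 1 in either direction. The 4 comparisons across the sets lie near 0 for DNMT1 against hnCD16, between -1.49 and -0.80 for DNMT3A and TET3, and between -4.83 and -3.52 for TET1 and TET2, while hnCD16 against CTRL stays between -0.46 and -0.15.

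The comparison of hnCD16 with CTRL addresses the CD16 receptor without fused domains, and the split does not cross it. Each group is its own sorted and expanded population, so the receptor and the population's history cannot be told apart in this comparison either. None of the 10 genes was called by edgeR there, where 0.527% of all genes were (0.212% higher, 0.315% lower). By unadjusted p, 7 of 10 were under 0.05, a count without its share over all genes, which was not taken. DESeq2 and limma called none either. At an adjusted p of at most 0.05 and any fold, 6 of 10 passed by edgeR, 1 higher and 5 lower, against 43.0% of all genes (21.4% lower). UHRF1 was lower in hnCD16 by a log2 fold change of -0.46 ± 0.0497 (edgeR adjusted p = 1.42e-05), DNMT1 by -0.40 ± 0.0508 (edgeR adjusted p = 3.17e-05) and TET3 by -0.38 ± 0.0464 (edgeR adjusted p = 2.37e-05). DNMT3A, at -0.27 ± 0.0835, and TET1, at -0.29 ± 0.0993, gave edgeR adjusted p of 0.0152 and 0.0273. DNMT3A lost significance without CTRL replicate 1 (-0.20, adjusted p = 0.0595) or hnCD16 replicate 1 (-0.24, adjusted p = 0.0523). TET1, whose TPM ranges overlapped between the groups, lost it in 7 of 15 alternatives, among them DESeq2 (adjusted p = 0.0718) and the fits without CTRL replicate 2 or 3 or hnCD16 replicate 1 or 2, with adjusted p of up to 0.15. GTSF1 went the other way, 0.30 ± 0.0711 higher in hnCD16 (edgeR adjusted p = 0.0026), though not past the threshold on log2(TPM + 1) by limma (adjusted p = 0.167). DNMT3B (-0.18 ± 0.0751), TET2 (-0.15 ± 0.124) and PRAME (-0.14 ± 0.0868) did not pass by edgeR, with adjusted p of 0.0647, 0.358 and 0.229. DNMT3B passed in 3 of 15 alternatives, with library size alone (-0.29, adjusted p = 0.00685), in the pairwise edgeR fit (-0.21, adjusted p = 0.0234) and by limma on log2(TPM + 1) (-0.31, adjusted p = 0.0136). PRAME passed in 2 of 14, with library size alone (-0.25, adjusted p = 0.0298) and by limma on log2(TPM + 1) (-0.26, adjusted p = 0.0182). The 3 hnCD16 libraries lay below the 3 CTRL libraries in TPM for UHRF1, DNMT1, DNMT3A, DNMT3B, TET3 and PRAME, as they did for 35.7% of all genes. CTRL libraries had the higher TMM factors, 1.05 to 1.11 against 0.985 to 1.02 in hnCD16, and without TMM the median log2 fold change of all genes in this comparison moved by -0.112. SSX1, with 1 count and 0 counts, has no fold here.

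FR1 and FR2 differ by the 2B4 domain, which FR1 holds and FR2 lacks. They also differ in FCGR3A, with 559 to 567 counts per library in FR1 and 1012 to 1132 in FR2. Each is its own sorted and expanded population, so the domain, the receptor level and the population's history cannot be told apart here. DNMT3B was lower in FR1, with 57, 57 and 81 counts against 103, 110 and 109 in FR2. The groups did not overlap, and the log2 fold change was -0.70 ± 0.123 (edgeR adjusted p = 0.0003), with -0.88 to -0.61 when each library was left out. SSX1 was 0.19 ± 0.063 higher in FR1 (edgeR adjusted p = 0.0276), but missed the threshold in 6 of 14 alternatives: DESeq2 (adjusted p = 0.0853), library size alone, limma with a pseudocount of 0.1, and the fits without FR1 replicate 1 (0.10), FR2 replicate 1 or FR2 replicate 2. DNMT1 (-0.10 ± 0.0513), DNMT3A (-0.20 ± 0.0948), UHRF1 (-0.14 ± 0.0554) and TET3 (0.14 ± 0.0533) did not pass by edgeR, with adjusted p of 0.16, 0.121, 0.0509 and 0.0552. UHRF1 lay at the threshold and passed in 9 of 15 alternatives, DESeq2 (adjusted p = 0.035) and the fit without FR1 replicate 1 (-0.18, adjusted p = 0.0333) among them. DNMT3A passed without FR2 replicate 2 (-0.31, adjusted p = 0.00998), and DNMT3A and DNMT1 both passed with library size alone. TET1, at 0.00 ± 0.323, and TET2, at -0.28 ± 0.322, were too low for a closer statement. PRAME was the 1 gene of the 10 called by edgeR (1.93% of all genes were called, 0.439% higher and 1.49% lower in FR1), on 1 count in FR1 and 9 in FR2. Its ratio was 8.84 (95% exact counting interval 1.23 to 387), the TPM ranges of the groups overlapped, and DESeq2 gave an adjusted p of 0.0511. The call was lost without FR1 replicate 1 or 2 and without FR2 replicate 1 or 3. GTSF1, with 1 and 2 counts, has no fold here.

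The same genes were then read by transcript, from RSEM's estimates, which split reads shared between isoforms and are uncertain for single transcripts. Of 38 transcripts of the 7 enzymes that held at least 10% of their gene's counts in some library, 7 had shares that lay apart between the fusion receptor libraries and the rest. How often this holds over the transcripts of all genes was not taken, so nothing is read from that count. For UHRF1, the main transcript, NM_001048201, held 60.7% to 74.1% of counts in CTRL and hnCD16 and 35.0% to 40.5% in FR1 and FR2. It stood at 57.1 to 106 TPM in the former libraries and 8.06 to 9.97 TPM in the latter. Transcript NM_001290050 held 3.68% to 7.28% and 24.2% to 35.9%, respectively, while its own level overlapped between the sets, at 4.15 to 7.61 TPM and 4.98 to 7.64 TPM. The lower UHRF1 level of the fusion receptor libraries thus lay in NM_001048201 and NM_001290051 (18.7 to 34.1 against 3.46 to 8.59 TPM), and not in NM_001290050.

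DNMT3A was carried by NM_022552, which held 74.1% to 81.0% of its counts in CTRL and hnCD16 and 94.8% to 97.5% in FR1 and FR2. Transcript NM_001320892 held 7.21% to 10.5% of counts in the former and 0% to 2% in the latter. In TPM, which divides by transcript length, this second transcript weighed more, with 4.39 to 8.48 TPM beside 7.45 to 11.3 TPM of NM_022552 in CTRL and hnCD16, and 0 to 0.70 TPM beside 4.43 to 6.07 TPM in FR1 and FR2. It thus made a larger part of the DNMT3A level on TPM than on counts. The transcripts not named here held a further 3.42 to 7.59 TPM in CTRL and hnCD16 and 0.19 to 1.14 TPM in FR1 and FR2.

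The TET2 counts of the fusion receptor libraries, 15 to 32 each, were assigned almost wholly to 1 transcript, a split that is uncertain at this depth. XM_005263082 held 36.9% to 79.3% of TET2 counts in CTRL and hnCD16, at 132 to 281 counts, and none in FR1 or FR2. There NM_017628 held 96.7% to 100% of what remained, at 15 to 31 counts, not far from its 26 to 44 counts in the other libraries, with overlapping ranges. For TET1, NM_030625 held 3.61% to 13.5% in CTRL and hnCD16 and 0% in FR1 and FR2, where 14 to 23 counts for the whole gene allow no further split. SSX1 reads in the fusion receptor libraries went to NM_005635 (94.9% to 98.8%), and GTSF1 reads in CTRL and hnCD16 to NM_144594 (96.8% to 97.7%).

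**Figure D4:**
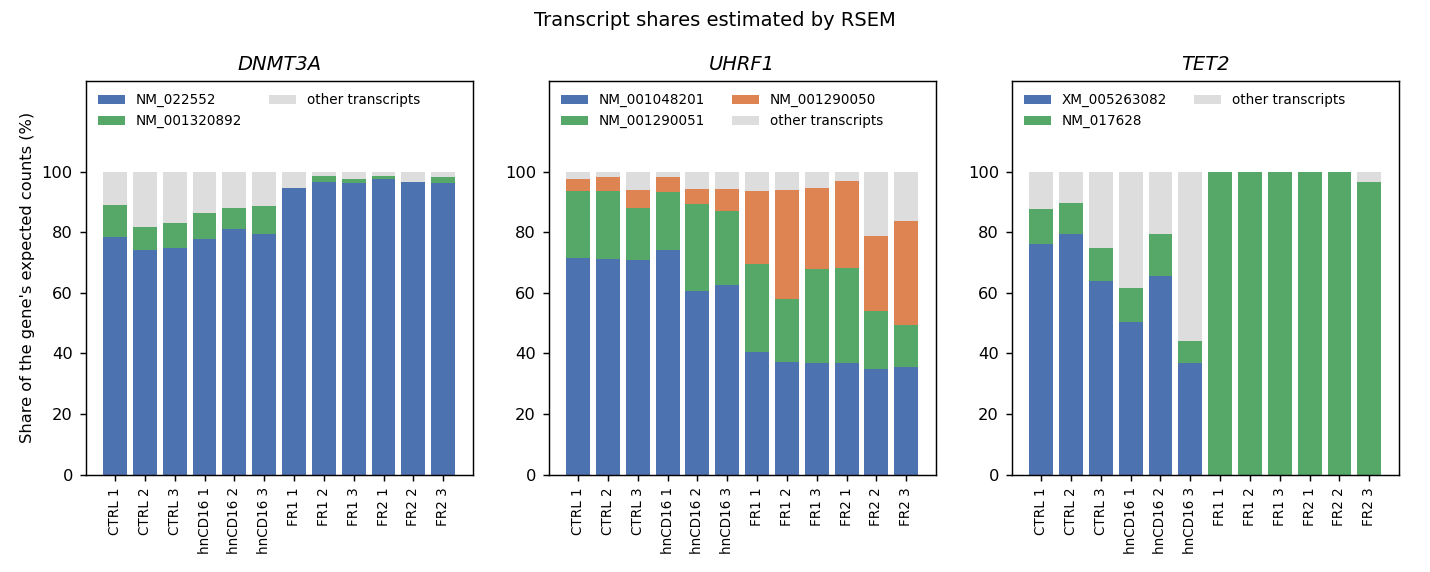
Share of the expected counts of DNMT3A, UHRF1 and TET2 assigned to their main transcripts in each of the 12 libraries, with all other transcripts in grey. The share of NM_001048201 of UHRF1 stands at 60.7% or more in CTRL and hnCD16 and at 40.5% or less in FR1 and FR2, and TET2 is 96.7% or more NM_017628 in FR1 and FR2.

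The wider pathway was read from 64 genes, of which 59 were tested: partners of the methyltransferases, readers of methylated CG, enzymes of demethylation and base excision, and the methyl donor cycle. Between 17 and 19 of them were called in each comparison across the sets, 28.8% to 32.2% of those tested, which is under the 38.0% to 39.5% of all genes. In all 4, 10 rose and 5 fell, where 31.7% of all genes were called in all 4. The median log2 fold change over the 59 was 0.05 in FR1 and 0.00 in FR2 relative to hnCD16, beside -0.01 and -0.03 over all genes. Of 17 partners tested, NSD1, which places the H3K36 methylation that DNMT3A binds, rose by 2.08 to 2.58 on the log2 scale. BEND3, a repressor bound to CG-rich DNA, fell, with log2 fold changes of -1.93 to -1.43. UHRF2, the paralog of UHRF1, rose by 1 to 1.28, from 48.4 and 52.1 CPM in CTRL and hnCD16 to 105 and 117 CPM in FR1 and FR2. It thus moved against UHRF1, and among the 17 partners the median was -0.31 in FR1 relative to hnCD16.

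Of 10 readers of methylated CG, 4 rose in each of the 4 comparisons and none fell. That is 40% called, near the 38.0% to 39.5% of all genes, with a median of 0.70 in FR1 and 0.71 in FR2 relative to hnCD16. ZBTB38 rose by 4.13 to 4.87 on the log2 scale and ZBTB4 by 1.92 to 2.63, both zinc finger proteins that bind methylated CG. MBD4, which binds methylated CG and excises mismatched thymine, rose by 1.71 to 2. Of 19 genes of demethylation and base excision, 3 rose and 3 fell in all 4 comparisons, beside 31.7% of all genes called in all 4. GADD45A, a stress-induced factor linked to demethylation, rose by 4.28 to 4.44, and GADD45G had 78 to 112 counts in FR1 and FR2 and 0 in CTRL and hnCD16. CXXC4, whose CXXC domain binds unmethylated CG, had 105 to 126 counts in CTRL and hnCD16 and 0 to 3 in FR1 and FR2. GADD45G and CXXC4 each passed the filter on low counts through 1 set alone, so each could only be called in 1 direction. In the methyl donor cycle 1 of 13 genes rose and 1 fell in all 4, beside the same 31.7%. MTRR, which reactivates methionine synthase, rose by 1.40 to 1.87, and MTAP, which salvages methionine, fell (-1.74 to -1.52) from 2.88 and 3.04 CPM in CTRL and hnCD16.

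None of the 59 pathway genes was called by edgeR in hnCD16 against CTRL or in FR1 against FR2, and none by DESeq2 or limma. By unadjusted p, 39 were under 0.05 in the former and 29 in the latter. The share of all genes at that threshold was not taken, so nothing is read from these counts. At an adjusted p of at most 0.05 and any fold, 36 of 59 (61%) passed by edgeR in hnCD16 against CTRL, beside 43.0% of all genes, and 26 (44.1%) were lower in hnCD16, beside 21.4% of all genes. In FR1 against FR2, 27 (45.8%) passed, beside 36.2% of all genes.

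Other germline genes were read from 173 names, of which 119 were in the table and 57 were tested. Between 29 and 34 were called in each comparison across the sets, 50.9% to 59.6% of those tested beside 38.0% to 39.5% of all genes. In all 4, 15 were higher and 11 lower, where 31.7% of all genes were called in all 4. The share depended on the filter. With at least 10 counts required in every library, which removes genes absent from a set, 7 to 9 of 26 were called, 26.9% to 34.6%, beside 27.6% to 29.3% of all genes. The median was 0.00 in FR1 and 0.05 in FR2 relative to hnCD16, so the list as a whole went neither way. Of 6 other SSX genes tested, 5 rose in FR1 and 6 in FR2 against either hnCD16 or CTRL. They had 0 to 3 counts in each CTRL and hnCD16 library and passed the filter through the fusion receptor libraries alone, so they could only be called higher and the count is no support for SSX1. SSX4 had 61 to 91 counts and SSX7 37 to 83 counts in the fusion receptor libraries, and both had 0 in all others. The SSX genes are near-identical copies, so that reads of 1 may be assigned to another, and SSX1 with at least 1268 counts was far above the rest. Of the PRAME family PRAMEF1 was in the table, with 1 count in 1 library, and was not tested.

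In the piRNA pathway, where GTSF1 acts, 4 of 15 genes tested rose and 3 fell in all 4 comparisons. Of all genes tested, 31.7% were called in all 4, and the counts of each list below stand beside that share. PIWIL4, a PIWI protein, had 39 to 57 counts in CTRL and hnCD16 and 0 or 1 in FR1 and FR2, and TDRD7, a Tudor domain protein of germ granules, fell, with log2 fold changes of -5.61 to -3.85. PIWIL4 passed the filter on low counts through CTRL and hnCD16 alone and could only be called lower. DDX4, a germ cell helicase, went the other way and rose by 4.32 to 5.18, to 7.68 CPM in FR1 and 13.6 CPM in FR2. Of 20 other cancer-testis genes tested, 2 rose and 6 fell in all 4. Most of those that fell, PAGE5 among them, had 0 to 3 counts in each FR1 and FR2 library. They passed the filter on low counts through CTRL and hnCD16 alone, so they could only be called lower. TKTL1, at 7 counts or fewer in each CTRL and hnCD16 library, could likewise only be called higher. PAGE5 had 338 to 409 counts in CTRL and hnCD16 and 0 in FR1 and FR2. CTCFL, the testis paralog of CTCF, stood at 123 and 128 CPM in CTRL and hnCD16 and fell, with log2 fold changes of -7.11 to -6.27. TKTL1, a transketolase-like protein, had 1 to 7 counts in CTRL and hnCD16 and 416 and 212 CPM in FR1 and FR2. Of 16 genes of meiosis and germ cells, 4 rose and 2 fell in all 4. TEX14, of the intercellular bridge, rose by 4.91 to 5.96, DMC1, the meiotic recombinase, rose by 1.57 to 2.23, and MEIOC, which acts in meiotic entry, fell (-2.96 to -2.04). Genes present in 1 set of libraries and near 0 in the other were thus among those named, in both directions, beyond SSX1, GTSF1 and PRAME. The genes were named for the size of their difference, so nothing is read from the presence of such genes among them. How often such genes occur among all genes was not tested.

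**Figure D5:**
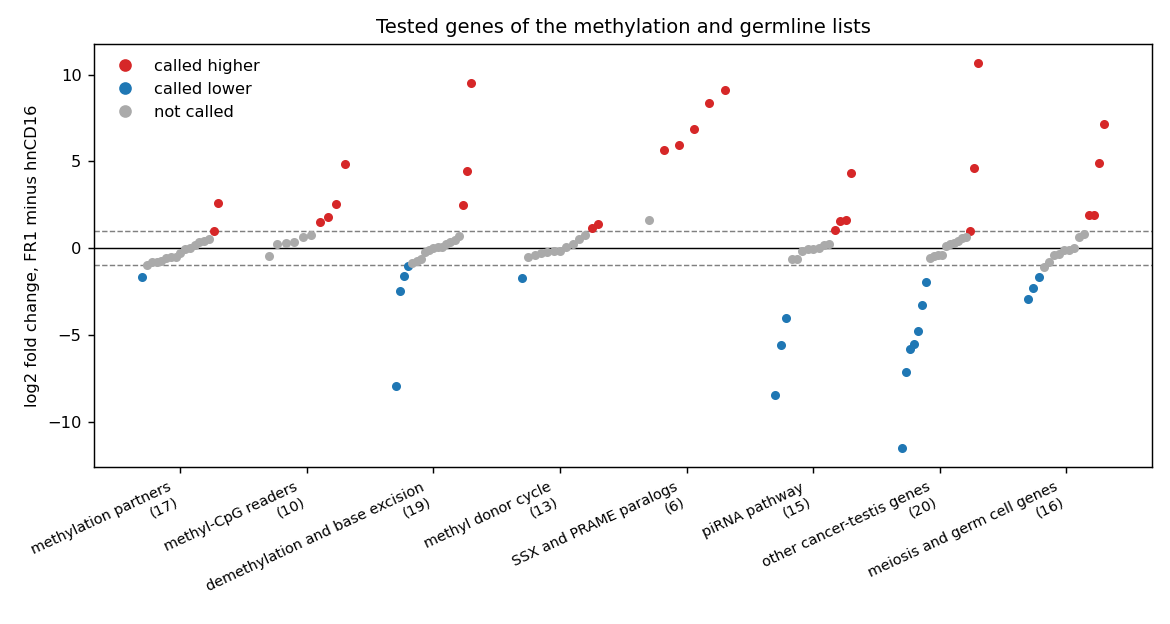
Log2 fold change of FR1 minus hnCD16 for every tested gene of the 8 methylation and germline lists, in rising order within each list, with the number tested under its name. Red and blue points were called higher and lower by edgeR, grey points were not called, and dashed lines mark a log2 fold change of 1 in either direction. The called readers of methylated CG and SSX paralogs are all higher, and the other lists hold genes called in both directions.

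Within the sets 1 of 57 germline genes (1.75%) was called in hnCD16 against CTRL, beside 0.527% of all genes, and 3 (5.26%) in FR1 against FR2, beside 1.93%. At any fold 8 (14%) and 15 (26.3%) passed by edgeR, beside 43.0% and 36.2% of all genes. In hnCD16 against CTRL, DPPA4, a chromatin protein of pluripotent and germ cells, was the gene called (log2 fold change -1.01 ± 0.348, edgeR adjusted p = 0.0261), with 12 to 20 counts in CTRL and 7 to 8 in hnCD16. The call held in 1 of 6 fits that left out a library, the one without CTRL replicate 1. In FR1 against FR2 the 3 called genes were lower in FR1. REC8, a meiotic cohesin, had 70 to 94 counts in FR1 and 171 to 206 in FR2 (-1.13 ± 0.115, edgeR adjusted p = 1.72e-06), and TDRD7 had 12 to 16 and 33 to 56 (-1.66 ± 0.244, edgeR adjusted p = 6e-05). Both calls held in all 6 fits that left out a library. SSX2 had 0 to 12 counts in FR1 and 19 to 22 in FR2 (-2.26 ± 0.675, edgeR adjusted p = 0.0143), and its call was lost without FR1 replicate 1 or FR1 replicate 3.

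The genes nearest to each member were sought among 13656 others, by the Euclidean distance of centred log2(TPM + 1) values over the 12 libraries. The points share their libraries and the split, and the distances are a description. SSX1 was nearest to PKIB (0.36) and KIR2DL4 (0.423), an NK cell receptor, which stood at 106 and 95.7 TPM in FR1 and FR2. GTSF1 was nearest to CD3D (0.752), a chain of the T cell receptor complex at 1320 and 1410 TPM in CTRL and hnCD16, and to TSPAN7 (1.09). PRAME was nearest to GRAP2 (0.322), an adaptor of T cell receptor signalling, and ZC4H2 (0.36). CD3D is also 1 of the T cell markers given above, and the part of the split in these levels was not tested. Among the enzymes, DNMT1 was nearest to KDM5C (0.133), UHRF1 to NEO1 (0.25), DNMT3A to CCNY (0.354), DNMT3B to CORO2A (0.276), TET1 to EPS8L1 (0.196), TET2 to ZNF682 (0.303) and TET3 to HNRNPA0 (0.18). Adding 1 to TPM narrows differences at low levels, so a near gene need not share the fold of the member. NEO1 had means of 5.31 and 3.23 TPM in CTRL and hnCD16 and 0.0633 and 0.09 TPM in FR1 and FR2. The means of UHRF1 were 146, 95.4, 22.2 and 24.7 TPM in the same order.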

How the data were processed

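RNA from 12 YT libraries was sequenced by the authors, whose notes name ribosomal RNA depletion and oligo(dT) selection. Strand is not given in the sources used here. Per the labels and methods, reads were aligned to GRCh38.p13 (HISAT2 2.1.0, Bowtie2 2.3.4.3) and quantified per gene and transcript with RSEM 1.3.1. The deposited tables hold expected counts and TPM values made by the authors, and both were used.

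Expected counts were rounded. Genes kept by filterByExpr (13657 of 17589) were normalised by TMM and fitted over the 4 groups in 1 model with edgeR 4.0.16 (quasi-likelihood, R 4.3.3). A call needed a log2 fold change of 1 and a Benjamini-Hochberg adjusted p of 0.05. The fit was first tested on simulated counts. Ratios near 0 counts were given with exact 95% intervals, and a group at 0 was set to 3 counts. No permutation test of 3 against 3 libraries can go below 0.1, so the model across all genes was used.

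The members and gene lists were chosen with earlier results of these data known. Named were all 10 members, up to 3 genes per list called alike in all 4 comparisons across the sets with the largest FR1 against hnCD16 difference at 1 CPM or more, list genes called within a set, and the nearest genes, of which the first or both are given. Alternatives were RLE and library-size scaling, other filters, DESeq2 1.42.0, limma 3.58.1 with a pseudocount of 1 or 0.1 on log2 TPM, a replicate block, pairwise fits, and leaving out each library. Replicate libraries differed by more than counting noise (chi-square per gene 2.04 to 12.4). Sequences came from RefSeq windows for GRCh38.p14, in which all 10 members matched, and gene positions from GENCODE v44.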

Additional observations from a re-analysis of the deposited data

How the results depend on the processing

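Over all settings, the fitted differences of the members kept their direction in all but 3 cases, each of DNMT1 in FR2 against hnCD16, where the value of 0.03 became -0.03 on TPM with either pseudocount and ran from -0.01 to 0.08 with each library left out, below 0 without hnCD16 replicate 2. TET1 in FR1 against FR2, at 0.00, had no direction to keep and ran from -0.16 to 0.18 with each library left out. Comparisons with only stray counts in both groups were not included (SSX1 in hnCD16 against CTRL, GTSF1 and PRAME in FR1 against FR2). The counts across the sets moved by more than 1.5 times in 2 ways. Requiring 10 counts in every library removes genes absent from a set, and left 5 members in FR2 against hnCD16 and 7, 7, 8 and 9 other germline genes in FR1 and FR2 against hnCD16 and against CTRL. Without the fold threshold 51, 46, 50 and 46 of 59 pathway genes passed there, 36 in hnCD16 against CTRL and 27 in FR1 against FR2. In the same order 10799, 10943, 10913, 10948, 5874 and 4939 of all 13657 genes tested passed.

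In hnCD16 against CTRL, 6 members passed without the fold threshold. Other germline genes called there came to 0 with 10 counts in every library, DESeq2 and limma, 8 without the fold threshold and 0 to 2 with each library left out. In FR1 against FR2, called members came to 0 with 10 counts in every library, DESeq2, limma and the pairwise fit, 3 without the fold threshold and 0 to 1 with each library left out, and other germline genes to 7 with a filter of 1 count in any library, 1 with limma on log2(TPM + 1), 15 without the fold threshold and 3 to 5 with each library left out.

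Over all genes, calls in the 4 comparisons across the sets (5234, 5391, 5196 and 5223) became 2992, 3151, 2966 and 2965 with 10 counts in every library and 10799, 10943, 10913 and 10948 without the fold threshold. In hnCD16 against CTRL 72 became 8 with 10 counts in every library, 31 with DESeq2, 6 and 52 with limma, 47 with the pairwise fit and 5874 without the fold threshold. In FR1 against FR2 264 became 73 with 10 counts in every library, 58 with limma on log2(TPM + 1) and 4939 without the fold threshold.

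The labels give same-numbered libraries only a number in common. The correlation of their deviations was 0.338, 0.0196 and 0.404 for numbers 1, 2 and 3 in hnCD16 against CTRL. It was also over 0.1 for number 1 in FR1 against hnCD16 (0.105) and CTRL (0.122). The same held for number 3 in FR2 against hnCD16 (0.171) and CTRL (0.201). In no comparison was it over 0.1 for all 3 numbers, and whether same-numbered libraries shared a step was not tested. With a block for replicate number, edgeR called 5247, 5395, 5207, 5233, 75 and 275 genes over the 6 comparisons, and the counts of called members stayed at 7, 8, 9, 9, 0 and 1. At any fold, UHRF1 in FR1 against FR2 passed with the block (adjusted p = 0.0315) and not without it (0.0509), and no other member changed sides within a set. Depth limits TET1 and TET2 in the fusion receptor libraries, at 14 to 32 counts, and the transcript shares below them.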
